A study of Mus musculus with 12 samples.

Results

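The regions described here are the 5922 of 107115 candidate regions of the mouse genome whose methylation level in wild-type bone marrow progenitors was intermediate, that is, at least 30% and under 60% as the mean of the 3 wild-type columns of the authors' table. They are called intermediate regions below. The wild-type levels chose them, so those levels are a description and not a finding. The candidate regions had in turn been chosen by the authors for a difference between the genotypes on these same samples.

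The cells were lin- bone marrow progenitors of BALB/c mice, meaning marrow cells left after removal of cells that carry markers of mature blood lineages. Wild-type controls were compared with animals carrying a mutation of Dnmt1, which the labels write as dnmt1-/- and the series text describes as a specific mutation designed from the structure of fish Dnmt1 proteins with missense, hypomorphic (reduced-function) changes. There were 12 samples, 6 of each genotype, from 3 replicate numbers and 2 conversion kits (TruSeq DNA Methylation and NEBNext Enzymatic Methyl-seq), and the table holds 1 column per genotype and replicate number, so n = 3 against 3. No source used here gives the ages of the mice, the purity of the cells or whether replicates were separate animals, so p-values measure only the spread between these columns. A methylation level averages over alleles and cells, so a change in each cell and a change in the mix of cells cannot be told apart, and the labelled cell type could not be checked against expression here. No read counts come with the levels, so the depth behind each value is unknown.

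DNMT1 is the maintenance methyltransferase: after replication it copies the methyl marks of the old strand onto the new strand at CpG sites. A region can be intermediate because only some cells carry the mark, because neighbouring CpGs differ, or because a single parental allele is methylated, as at imprinted genes, where the mark laid down in egg or sperm is kept in body cells. In blood progenitors, CpG-poor enhancers and the edges of CpG islands are often intermediate.

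The intermediate regions at gene starts behaved in 3 ways, shown here by 7 stretches of reference sequence chosen after their values were seen. Each stretch is the part of the 250 bases upstream of a gene start that lies inside an intermediate region, from RefSeq's GRCm38.p6 promoters, written 5′ to 3′ along the gene's strand with every CpG in capitals. The first set is from regions called lower in the mutant: Rbmxl2, a testis-specific relative of an RNA-binding protein gene (chr7:107209251-107209444, plus strand), Gtf2a1l, a germ-cell transcription factor subunit gene (chr17:88668410-88668659, plus strand), and Mkrn3, an imprinted gene of the Prader-Willi region (chr7:62420154-62420403, minus strand).
Rbmxl2: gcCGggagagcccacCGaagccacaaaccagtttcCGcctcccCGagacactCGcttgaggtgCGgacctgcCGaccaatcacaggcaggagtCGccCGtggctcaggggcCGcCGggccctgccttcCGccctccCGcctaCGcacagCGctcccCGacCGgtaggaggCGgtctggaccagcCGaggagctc
Gtf2a1l: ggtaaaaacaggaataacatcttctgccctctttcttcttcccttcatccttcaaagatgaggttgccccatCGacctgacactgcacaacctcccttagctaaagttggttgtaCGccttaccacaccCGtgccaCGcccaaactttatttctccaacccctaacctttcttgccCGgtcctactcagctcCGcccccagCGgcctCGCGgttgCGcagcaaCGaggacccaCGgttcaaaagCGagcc
Mkrn3: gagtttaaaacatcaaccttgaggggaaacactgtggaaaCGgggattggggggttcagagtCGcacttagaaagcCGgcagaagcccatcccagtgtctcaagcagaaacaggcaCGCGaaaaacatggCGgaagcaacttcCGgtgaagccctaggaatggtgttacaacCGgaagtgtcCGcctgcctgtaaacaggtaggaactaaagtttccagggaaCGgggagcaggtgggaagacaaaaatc

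The second set comes from regions at imprinted genes that were called in neither direction. Zrsr1 is a splicing factor gene lying inside an intron of Commd1 (chr11:22971839-22972004, plus strand). Gnas is the gene of the stimulatory G protein alpha subunit (chr2:174327549-174327748, plus strand). Igf2r is the receptor gene that clears insulin-like growth factor II (chr17:12769886-12769956, minus strand). The last, Nradd, a death-domain receptor gene (chr9:110624394-110624643, minus strand), was called higher.
Zrsr1: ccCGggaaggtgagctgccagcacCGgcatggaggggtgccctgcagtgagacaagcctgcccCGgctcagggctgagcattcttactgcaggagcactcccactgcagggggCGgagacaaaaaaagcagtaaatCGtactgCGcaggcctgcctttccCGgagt
Gnas: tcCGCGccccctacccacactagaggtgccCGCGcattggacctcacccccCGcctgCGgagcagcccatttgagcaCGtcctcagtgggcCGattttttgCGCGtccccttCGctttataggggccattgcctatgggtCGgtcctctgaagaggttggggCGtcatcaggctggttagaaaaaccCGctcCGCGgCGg
Igf2r: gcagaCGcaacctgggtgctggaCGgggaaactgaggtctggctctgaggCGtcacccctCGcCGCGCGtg
Nradd: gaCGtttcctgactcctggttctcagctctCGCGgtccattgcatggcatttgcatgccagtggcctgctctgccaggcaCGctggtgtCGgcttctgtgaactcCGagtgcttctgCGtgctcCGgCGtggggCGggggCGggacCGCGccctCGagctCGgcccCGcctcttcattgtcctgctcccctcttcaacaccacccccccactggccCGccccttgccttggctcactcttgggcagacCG

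The CpGs of these stretches number 19, 13 and 10 in the first set, 7, 17 and 7 in the second, and 18 in Nradd. The stretches do not separate by CpG number.

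Methylation of the intermediate regions was lower in the mutant by about as many points as remained. Their mean level was 47.9%, 48.0% and 48.2% in the wild-type columns, taken in order of size, and 23.0%, 24.6% and 26.0% in the mutant columns. The column means of the genotypes did not overlap and lay far apart. The wild-type mean was 48.0% ± 0.192 and the mutant mean 24.5% ± 1.48 (SD, n = 3 each), a difference of -23.5 percentage points, so that 51.1% of the wild-type level was retained. Over single regions the median difference was -23.0 points, with quartiles of -29.6 and -16.9 and a range from -55.9 to 23.4. Among the mutant columns, Mut1 was the lowest in 51.4% of the intermediate regions and Mut3 the highest in 50.2%, whereas each wild-type column was the lowest in 31.0% to 35.3%.

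**Figure D1:**
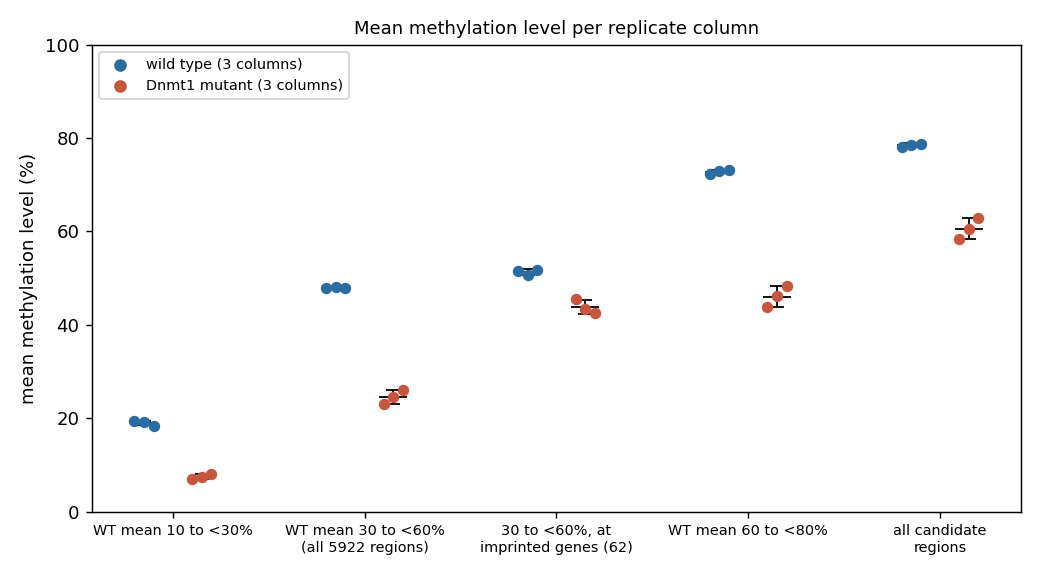
Mean methylation level in percent of each replicate column (points; blue wild type, red Dnmt1 mutant) for the intermediate regions, their members at imprinted genes, the neighbouring ranges of wild-type level and all candidate regions; black bars are the mean ± SD over 3 columns. The mutant columns of all 5922 intermediate regions sit between 23.0% and 26.0%, and those of the 62 at imprinted genes between 42.5% and 45.5%.

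Set beside regions of other wild-type level, the intermediate regions lost a middling share. Regions with a wild-type mean of 10% to under 30% (2907) went from 19% to 7.54%, retaining 39.7%, and regions of 60% to under 80% (18691) went from 72.8% to 46.1%, retaining 63.3%. Over all candidate regions 77.1% was retained. These ranges are defined by the wild-type level and the candidates were chosen for a difference, so the order is a description, given without a test.

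Region by region, limma called 5716 intermediate regions lower in the mutant (96.5%, against 93.5% of all candidate regions) and 23 higher (0.388%, against 0.0485%), at an adjusted p under 0.05. The other 183 were called in neither direction. Every mutant column lay below every wild-type column in 5611 (94.7%, against 94.3% of all candidates) and above in 17 (0.287%, against 0.0952%). The authors' hypomethylated list, which holds 33.1% of all candidate regions, holds 3581 of the intermediate ones (60.5%), and their hypermethylated list of 4 regions holds 2. Since the candidates were selected for a difference and the wild-type columns chose the regions, the share called lower, close to that of all candidates, supports no statement about intermediate regions.

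In a comparison with a wild-type column that had no part in the choice, the loss was of the same size. Regions were chosen again on the mean of 2 wild-type columns and the mutant was compared with the column left out. With WT1 left out, 5911 regions had 48.4% in WT1 and 24.6% in the mutant, and limma called 83.8% lower against 63.2% of all candidates. With WT2 left out, 5977 regions had 48.8% and 24.7%, with 85.0% called lower against 67.6%. With WT3 left out, 5993 regions had 48.0% and 24.5%, with 84.8% called lower against 68.8%. The lone wild-type column was assumed to vary like the mutant columns, and the candidates had still been chosen on all columns.

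Within the range, regions that were more methylated in the wild type kept a larger share of it. The steps use the wild-type level that chose the regions, and the candidates were chosen for a difference. This order is therefore a description, and how far those choices shape it was not tested. Regions of 30% to under 35% (629) had 14.5% in the mutant, a retained share of 44.6%. Those of 45% to under 50% (974) had 23.9%, or 50.3%, and those of 55% to under 60% (1644) had 31.0%, or 53.8%. The mutant mean lay between 10% and 40% in 4877 intermediate regions (82.4%), under 10% in 568 (9.59%) and under 5% in 144. It was 40% or more in 477 (8.05%) and not below the wild-type mean in 53.

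Among the intermediate regions in the authors' hypomethylated list, CpG-dense ones ended lower than CpG-poor ones. The authors give CpG numbers only for their lists, whose intermediate members had a median of 11 CpGs (at most 119) and 2.03 CpGs per 100 bases, against 12 CpGs and 1.78 per 100 over the whole hypomethylated list. In the lowest of 4 groups by CpGs per 100 bases (0.681 to 1.5, 896 regions) the mean level went from 51.5% to 23.8%, and 44 regions (4.91%) ended under 10%. In the densest group (2.95 to 23.9, 895 regions) it went from 47.3% to 16%, and 264 (29.5%) ended under 10%. The wild-type level was also lower in the densest group and the share at promoters was larger (18.1% against 11.0%), and their part in the pattern was not tested. The list itself was chosen by the authors for a loss. CpGs per 100 bases also depends on length. Over all intermediate regions, the shortest of 4 length groups went from 46.2% to 22.2% and the longest from 50.2% to 27.1%. The part of length was not tested either.

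**Figure D2:**
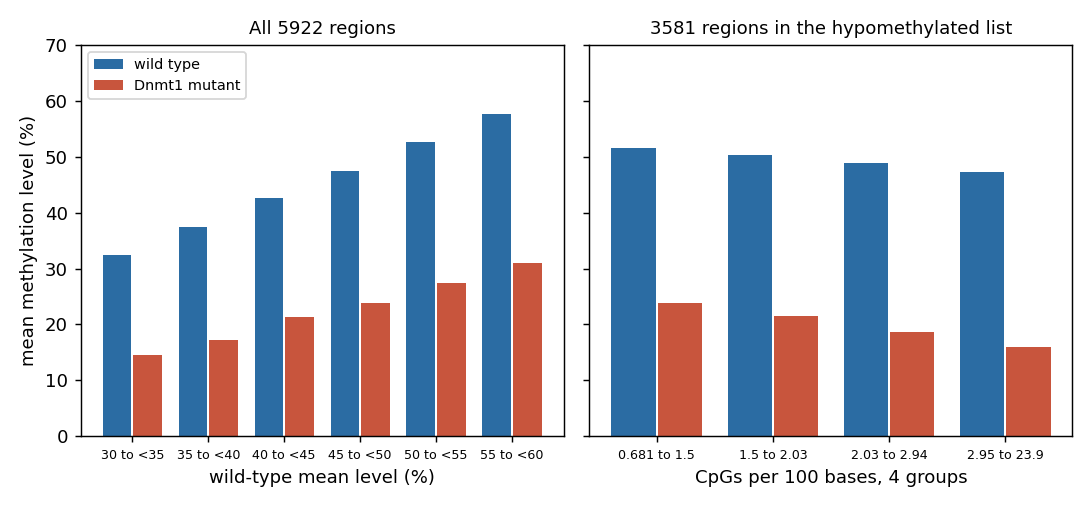
Mean methylation level in percent (bars from 0; blue wild type, red Dnmt1 mutant) of the intermediate regions by step of wild-type level (left, all 5922) and by 4 groups of CpGs per 100 bases (right, the 3581 in the authors' hypomethylated list). The mutant bars rise from 14.5% to 31.0% across the steps and go from 23.8% to 16% across the groups.

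The regions at the limits of the rule had mutant levels spread over a wide range. Just inside the lower limit were regions at or nearest to Tgfb1, Ldb3 and Pmel, with wild-type means that round to 30% and mutant means of 16.7%, 1.72% and 13.2%. Just outside it were regions at or nearest to Epb41l1, Peli2 and Atp2b2, with mutant means of 18.5%, 16.6% and 7.55%. Just inside the upper limit were regions at Gpa33, Cyp2b13 and Nrg2 (mutant means 24.4%, 24.7% and 40.3%), and just outside were regions at or nearest to Matn1, Aldh3b2 and 1600014C23Rik (13.6%, 34.3% and 35%), of several tied at the limit, all with wild-type means that round to 60%.

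Intermediate regions lay at gene starts more often than candidate regions as a whole. Of the 5922, 801 (13.5%) lay no more than 1 kb from a protein-coding gene's start, against 6.27% of all candidates, 23.6% of the 10% to under 30% range and 6.27% of the 60% to under 80% range. Another 3061 (51.7%) overlapped a protein-coding gene body and 2060 (34.8%) neither, against 64.1% and 29.7% of all candidates. Starts are known here for 17491 of 21896 protein-coding genes, so the promoter counts cover those genes. Mean levels were alike in the 3 settings: 46.6% in the wild type and 23.0% in the mutant at promoters, 48.2% and 25.3% in gene bodies, and 48.3% and 24.1% elsewhere. Limma called 764 of the 801 promoter regions lower and 8 higher.

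At 254 RefSeq promoters an intermediate region covered 150 bases or more of the 300-base window. These promoters had a median of 8 CpGs (quartiles 6 and 14), against 11 where the wild-type mean was 10% to under 30%, 6 where it was 60% to under 80%, and 7 (quartiles 3 and 20) over all 32851 promoters. The GC box GGGCGG, searched on both strands, was in 37.8% of them against 35.7% of all promoters of that length, and the E-box CACGTG in 6.30% against 7.15%. Those shares were near the background.

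Intermediate regions had close neighbours about as often as other candidates. Another candidate region lay within 1 kb of 2754 (46.5%, against 44.7% of all candidates). For 1681 of them the nearest one was methylated to 60% or more, for 777 to under 30%, and for 296 it was intermediate too. The median length was 625 bases (661 for all candidates). Over the 19 autosomes, intermediate regions made up between 4.56% (chromosome 13) and 6.58% (chromosome 11) of the candidates, and their mean difference lay between -25.6 and -21.2 points.

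The largest losses took intermediate regions to near 0. At a region 207 kb from Fbxw7, the ubiquitin ligase adaptor gene (chr3:85186647-85186953), the wild-type columns had 62%, 59.5% and 57.5% and the mutant columns 3.45%, 4.27% and 3.64%. The difference was -55.9 points (adjusted p = 5.2e-06, limma). A region 27.0 kb from Stum (chr1:180510505-180511000) had 52.6%, 57.1% and 59.4% against 0.714%, 0% and 1.43%, a difference of -55.7 points. In both the genotypes were far apart. Within Tex14, a gene for the intercellular bridges of germ cells, a region (chr11:87467817-87468151) had 63.8%, 58.0% and 55.6% against 2.56%, 3.11% and 4.78%. The other 7 of the 10 largest losses lay in Npas1, a neuronal transcription factor gene, Slc1a5, a glutamine transporter gene, Creb3l2, Maml3, a Notch coactivator gene, Cilp2 and Arsg, and 1.0 kb from Slco5a1, with mutant means between 1.55% and 5.89%. In Arsg, a lysosomal sulfatase gene, the wild-type columns were 72.9%, 29.8% and 74.7%, so WT2 stood apart from the other two, yet all lay above the mutant (3.91%, 4.45% and 5.45%). A loss of 40 points or more was seen in 302 intermediate regions.

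Among promoters, the largest losses were at Vsx1, Fem1al, Rpp25l, Oxct2a, Rap1gap, Gng7, Oxct2b, Prkcsh, Thtpa and Ift27, each called lower. At Vsx1, a homeobox gene of the retina (chr2:150689392-150689647), the wild-type columns had 63.0%, 54.9% and 49.1% and the mutant columns 6.56%, 7.11% and 2.78%, a difference of -50.2 points (adjusted p = 1.02e-05, limma). At Oxct2a, a testis-specific ketone body enzyme gene (chr4:123322817-123322907), they had 48.0%, 60.9% and 44.2% against 2.22%, 1.67% and 4.0%. Its neighbour paralog Oxct2b (chr4:123116935-123117089) had 51.4%, 54.9% and 52.8% against 4.77%, 7.08% and 4.15%. The 2 paralogs are close copies, so reads could be shared between them. At Rap1gap, which switches off the small GTPase Rap1 (chr4:137724328-137724771), the levels were 39.0%, 59.4% and 56.7% against 3.0%, 4.29% and 3.57%. At Gng7, a G protein gamma subunit gene, they were 54.3%, 51.3% and 46.7% against 3.82%, 3.64% and 1.36%. The groups did not overlap at any of the 10, a condition of their choice, and their mutant means lay between 2.63% (Oxct2a) and 11.4% (Prkcsh).

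The intermediate regions with the most CpGs included the start of Rbmxl2, whose upstream sequence is printed above. Its region (chr7:107209251-107210605, 119 CpGs) had 54.4%, 52.7% and 46.3% in the wild type and 10.6%, 6.58% and 7.64% in the mutant, a difference of -42.9 points (adjusted p = 7.62e-06, limma). The genotypes did not overlap. Regions in Jph2 (112 CpGs), a muscle junction gene, and Neurl1b (90 CpGs), a ubiquitin ligase gene, went from 57.0% to 23.8% and from 54.2% to 17.6%. Of the 5, those 196 kb from Gm9222 (91 CpGs) and 17.1 kb from Zfp369 (86 CpGs) ended highest, at 33.0% and 32.5%. At Gtf2a1l (chr17:88668164-88668687) the wild type had 44.3%, 47.2% and 27.3% and the mutant 3.94%, 10.1% and 2.31%, a difference of -34.2 points.

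Intermediate regions at imprinted genes differed less between genotypes than the other intermediate regions did. Of 44 imprinted genes listed, 43 were matched and 26 had an intermediate region within their span or 5 kb of it, 62 regions in all. Limma called 27 of these 62 lower (43.5%), 5 higher and 30 neither, against 5689 of the other 5860 lower (97.1%). The mean level was 51.6%, 50.6% and 51.8% in the wild-type columns and 45.5%, 43.5% and 42.5% in the mutant columns. The groups did not overlap but lay close, at 51.3% ± 0.687 and 43.9% ± 1.49 (SD, n = 3 each). The median difference was -8.56 points, against -23.1 for the other intermediate regions. A mutant mean of 40% or more was found in 41 of 62 (66.1%) and in 436 of 5860 others (7.44%), and a mutant mean not below the wild type in 19 and 34. The list and this contrast were chosen with earlier results of these data known, so the counts are a description. Nor are the 62 separate loci, since several genes hold neighbouring pieces. Gnas had 12 of them (7 called neither), Igf2r 9 (6 neither), and Zrsr1 with Commd1 6 (4 neither). At Cdkn1c and at Peg3, all 3 regions were called lower.

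These 62 regions were shorter and noisier than the rest. Their median length was 212 bases (625 for all intermediate regions), and their median SD over columns was 5.62 points in the wild type and 5.70 in the mutant, against 3.66 and 3.32. In the shortest of 4 length groups of the intermediate regions (38 to 428 bases), which holds 46 of the 62, the regions away from imprinted genes had a median difference of -24.9 points and were called lower in 93.0% (1440 regions). Other candidate regions at the same imprinted genes, outside the intermediate range, were called lower in 213 of 248 cases (85.9%), with a median difference of -14.7 points.

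Averaged over their regions, several imprinted genes kept nearly the wild-type level, while single regions went both ways. Across 12 regions of Gnas, the column means were 51.5%, 52.8% and 51.9% in the wild type and 57.5%, 54.8% and 47.1% in the mutant. Limma called 3 of the 12 lower, 2 higher and 7 neither, and each of the 3 lower calls was lost in at least 4 of 9 other fits. Across 9 regions of Igf2r, 8 of which also lie within 5 kb of the antisense RNA gene Airn, they were 50.9%, 47.2% and 51.8% against 51.2%, 46.3% and 49.1%. Limma called 2 of the 9 lower, 1 higher and 6 neither. One of the lower calls, at chr17:12733838-12734613 with a difference of -13.3 points (50.4% to 37.1%), held in all 9 other fits. The other lower call (chr17:12769801-12769859) lay 95 bases from the Igf2r start, next to the region of the printed stretch. Its difference was -15.9 points (57.1% to 41.3%), and the call was lost in 1 of the 9 fits. The column means overlapped at both genes. At Mest, a hydrolase gene expressed from the paternal copy, 3 regions had 57.0%, 55.3% and 55.6% against 58.6%, 63.2% and 52.8%, with none called. Overlap was again the rule at the noncoding RNA gene H19, where 2 regions had 45.7%, 50.4% and 53.7% against 52.7%, 50.3% and 49.9%.

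The Zrsr1, Gnas and Igf2r regions whose sequences are printed above were each called in neither direction. The Gnas stretch lies in a region (chr2:174327549-174327764) with 49.8%, 51.7% and 30.3% in the wild type and 59.9%, 58.0% and 51.0% in the mutant, overlapping, a difference of 12.4 points (adjusted p = 0.0532, limma). In 5 of 9 other fits it was called higher. The Igf2r stretch lies in one (chr17:12769886-12770007) with 57.7%, 45.5% and 35.4% against 41.5%, 33.4% and 40.5%, a difference of -7.76 points (adjusted p = 0.174, limma). The Zrsr1 region (chr11:22971839-22972053) had 49.7%, 43.1% and 56.4% against 54.4%, 33.8% and 37.7%, a difference of -7.78 points (adjusted p = 0.195, limma). The 6 regions of Zrsr1 and Commd1 together went from 53.0% to 44.9%, with 2 called lower.

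Other imprinted genes lost more methylation, with every region named here called lower unless stated. At Cdkn1c, the cyclin-dependent kinase inhibitor gene silenced on the paternal copy, 3 regions had column means of 45.4%, 46.8% and 48.0% in the wild type and 11.0%, 12.7% and 12.6% in the mutant, and all were called lower. The groups were far apart. The strongest (chr7:143463648-143463943, 10 CpGs) lies outside the gene, 2.59 kb from it. It had 55.6%, 45.2% and 48.8% against 5.0%, 4.67% and 6.67%, a difference of -44.4 points (adjusted p = 8.12e-06, limma). On the same chromosome, 2 regions of Kcnq1ot1, the long antisense RNA that silences this cluster, went only from 52.7% to 47.0%, with 1 called lower. Magel2 and Mkrn3, of the Prader-Willi region, had 1 region each: 32.1%, 40.8% and 30.8% against 8.06%, 10.2% and 4.35% at Magel2, and 30.2%, 30% and 30.4% against 14.9%, 6.07% and 4.57% at Mkrn3. Neither overlapped. A region within 5 kb of Fkbp6, an immunophilin gene of the germline, went from 47.2% to 13.1%. It lies outside Fkbp6, in the gene body of Trim50. The 2 regions of Cdh15, a muscle cadherin gene, one of them 2.1 kb outside it, went from 55.6% to 30.9%. The 3 regions of Peg3, a zinc finger gene, went from 56.4% to 38%. All of these were called lower.

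**Figure D3:**
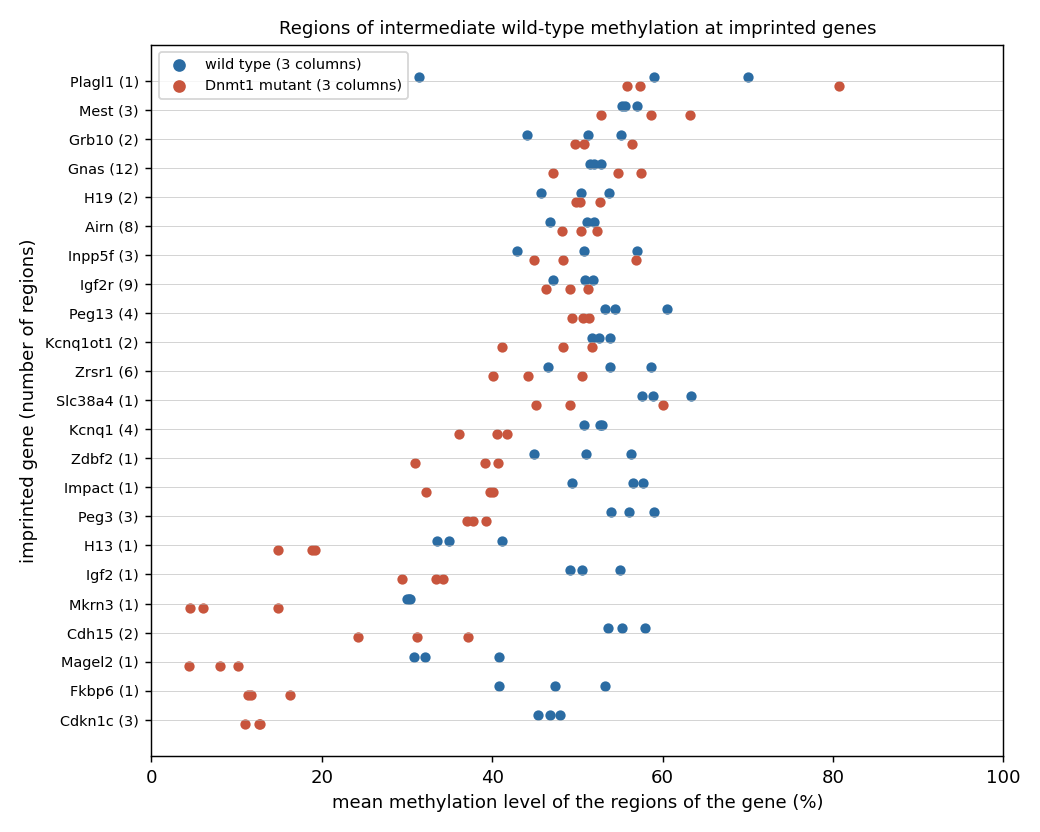
Mean level in percent of the intermediate regions of each imprinted gene in the 3 wild-type (blue) and 3 mutant (red) columns, with the number of regions in brackets, in order of the difference. Airn shares 8 regions with Igf2r, and Kcnq1ot1 shares 2 with Kcnq1. Cdkn1c lies at the bottom with mutant means of 11.0% to 12.7%, and Gnas, Mest and H19 overlap between genotypes.

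**Figure D4:**
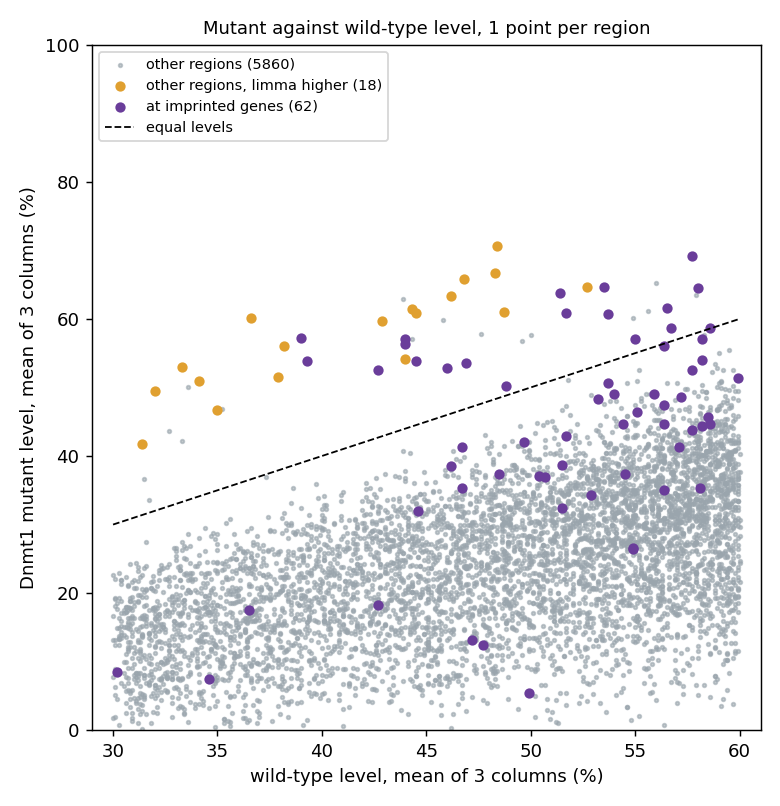
Mutant against wild-type level in percent, each the mean of 3 columns, with 1 point per intermediate region; the dashed line marks equal levels. The 62 regions at imprinted genes (purple) gather near the line, where 19 of them lie on or above it, whereas the 5860 others (grey, with 18 called higher in orange) lie mostly well below.

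Intermediate regions at genes of blood cell identity were nearly all called lower, as were 96.5% of all intermediate regions and 93.5% of all candidates. The counts were 19 of 20 at 24 listed stem and progenitor genes (median difference -19.8 points), 14 of 14 at B lineage genes (-19.3), 20 of 20 at T and NK lineage genes (-19.2), 7 of 8 at granulocyte and monocyte genes (-19.6) and 11 of 12 at erythroid and megakaryocyte genes (-21.7), with none called higher. All these medians lay nearer 0 than the -23.0 of all intermediate regions. At lists of other genes, the counts were 12 of 12 at stromal and endothelial genes (-18.7), 20 of 20 at signalling receptor genes (-20.2) and 1 of 3 at germline genes (-11.9). The counts at blood genes lie near those background shares, so they support no statement about blood genes in particular. The germline count rests on 3 regions.

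**Figure D5:**
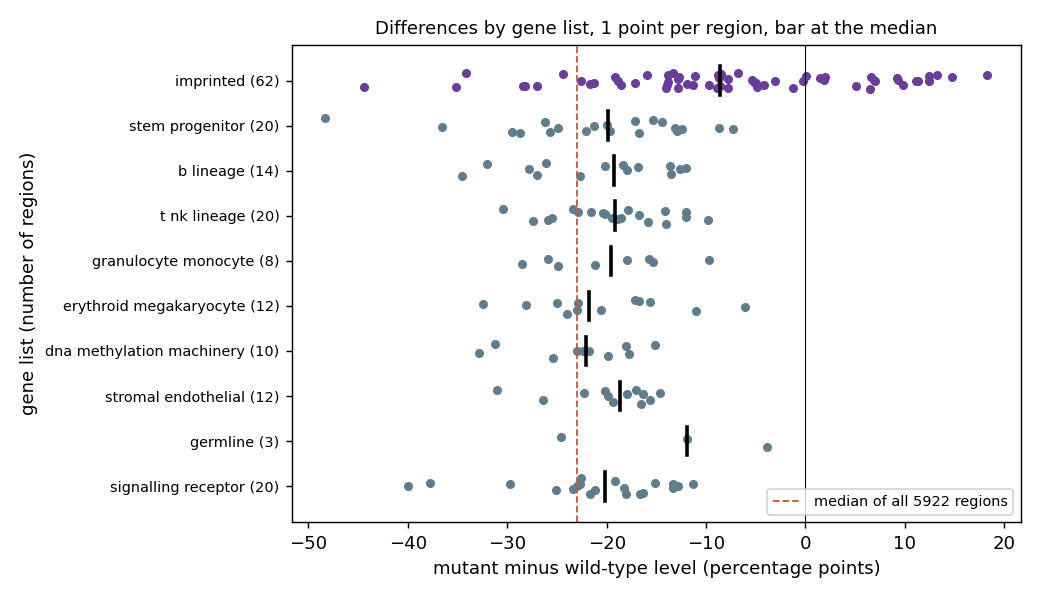
Mutant minus wild-type level in percentage points for each intermediate region (points) of the 10 gene lists, with the number of regions in brackets, a black bar at each list's median and a dashed line at the median of all 5922. The imprinted list has its median at -8.56, and those of the blood lists lie between -21.7 and -19.2.

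The single regions given here were picked for the largest losses in their lists, so they show the deepest losses at these genes and not typical ones. In Myb, the progenitor transcription factor gene, a region (chr10:21144864-21145124) had 59.6%, 57.2% and 44.0% in the wild type and 9.33%, 13.2% and 28.4% in the mutant. The genotypes did not overlap, though Mut3 was well above the other mutant columns. Near the start of Ikzf1, the gene of the lymphoid regulator Ikaros (chr11:11685012-11685191), the levels were 35.8%, 40.3% and 39.4% against 11.1%, 3.09% and 5.36% (difference -32.0 points). A region of its relative Ikzf3 (chr11:98469903-98470354) had 47.0%, 36.7% and 45.7% against 5.23%, 8.69% and 11.6%. In Ank1, the gene of the red cell skeleton protein ankyrin (chr8:22975816-22976286), they were 40.8%, 36.9% and 48.3% against 9.78%, 8.44% and 10.7%. None of these overlapped. Across all 4 regions of Ank1 the mean went from 46.5% to 26.1%, a smaller loss.

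Lymphoid, myeloid and signalling genes followed. In Pax5, which commits cells to the B lineage, 3 regions went from 41.8% to 18.5%, and in Bcl11b, needed for T cell commitment, 3 went from 38.5% to 15.4%. In or within 5 kb of Notch1, the receptor that starts the T cell programme, 5 regions went from 53.7% to 33.9%. In Runx3 3 regions went from 47.8% to 27.0%, and in Tbx21, the T-bet gene, 1 went from 47.2% to 16.9%. At the promoter of Elane, the neutrophil elastase gene, a region shared with Prtn3 (chr10:79886214-79887154) had 59.5%, 53.1% and 47.2% against 35.9%, 36.2% and 33.6%, without overlap. Among signalling genes, Notch3 went from 51.0% to 11.0% and Notch4 from 56.1% to 18.3%, in 1 region each. All of these regions were called lower.

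The genes that write, copy and read methylation had 10 intermediate regions, all called lower (median difference -22.1 points), where 96.5% of intermediate regions and 93.5% of all candidates were. Dnmt1 itself had 2. One within 5 kb of its span (chr9:20902140-20902845) had 50.1%, 51.7% and 46.7% in the wild type and 16.4%, 19.7% and 14.0% in the mutant, and one in its gene body (chr9:20945965-20946842) had 58.5%, 48.9% and 47.6% against 22.2%, 28.2% and 28.4%. Near the start of Uhrf1, which guides DNMT1 to replicated DNA (chr17:56305111-56305761), the levels were 54.1%, 55.1% and 46.8% against 14.3%, 22.1% and 26.1%. The groups did not overlap in any of the 3. At Dnmt3a, a de novo methyltransferase gene, 2 regions, one of them 3.13 kb outside it, went from 59.5% to 39.3%. Within 5 kb of Mbd3, a methyl-CpG-binding domain protein gene, 1 went from 32.2% to 9.15%, but its nearest gene was Mex3d. The mutation's own site was not analysed here.

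The 23 intermediate regions called higher were short: their median length was 233 bases, against 634 for those called lower, and 9 of them (39.1%) were under 200 bases, against 3.64%. The 2 in the authors' hypermethylated list were at Vasn and Nradd. Being listed did not need a small q-value: the authors' metilene q-value was 0.11 at Nradd and larger at Vasn. The same holds for losses given above: the metilene q-value was 0.95 at Ikzf3, 0.71 at the single Ank1 region and 0.25 at the strongest Cdkn1c region. It was larger still at Myb, Uhrf1 and the 2 Dnmt1 regions, and small at others, such as 6e-70 at Rbmxl2. At Vasn, a gene of a TGF-beta binding membrane protein inside Coro7 (chr16:4640264-4640496), the wild-type columns had 22.3%, 41.9% and 45.7% and the mutant columns 50.4%, 66.2% and 63.6%, a difference of 23.4 points (adjusted p = 0.00642, limma). The region next to it (chr16:4640045-4640245) was also called higher, by 16.2 points, but its columns overlapped and the call was lost in 6 of 9 other fits. At Nradd (chr9:110624291-110624831) the levels were 44.7%, 65.6% and 35% against 66.3%, 70.1% and 75.7%, a difference of 22.3 points (adjusted p = 0.0116, limma). In both the mutant lay above every wild-type column, but at Nradd WT2 came within a point of Mut1.

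Other gains were at Hoxa2, Fbxl8, Kifc3, Inpp5f, C2cd2l and Prrt3. At Hoxa2, a hindbrain patterning gene (chr6:52164273-52164362), the levels were 34.9%, 31.7% and 33.3% against 50.3%, 52.0% and 56.6%, a difference of 19.7 points (adjusted p = 0.00011, limma) with well separated groups. In Inpp5f, a phosphoinositide phosphatase gene with an imprinted transcript (chr7:128687882-128688027), they were 34.1%, 48.7% and 34.1% against 65.1%, 53.7% and 52.9% (difference 18.3 points, adjusted p = 0.00523, limma). Both calls held in all 9 other fits. The gain at Inpp5f was not shared by its 2 other intermediate regions, which lie close by. They differed by -4.93 points (chr7:128688132-128688259) and -13.9 points (chr7:128688298-128688403), and were called in neither direction. Over the 3 regions of Inpp5f the mean difference was -0.197 points. The 4 other higher calls at imprinted genes (2 in Gnas, 1 each in Igf2r and Grb10) lost their call in at least 4 of the 9 fits, and at Fbxl8 and Prrt3 in 1 fit and at C2cd2l in 2.

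A few intermediate regions away from imprinted genes barely differed. Among those with an SD under 5 points in both genotypes, the smallest differences were in Rab3c, Auts2, the mitochondrial gene ND1, Piwil2 and Gabbr2. In Rab3c, a vesicle GTPase gene (chr13:110149070-110149155), the columns had 60.1%, 54.0% and 60.7% against 55%, 60% and 57.7% (difference -0.704 points, adjusted p = 0.801, limma). In Piwil2, a germline gene for a partner of piRNAs (chr14:70402128-70402644), they had 38.2%, 40.1% and 40.9% against 36.6%, 32.4% and 38.6% (adjusted p = 0.139, limma). Both overlapped. Over all intermediate regions, those at imprinted genes included, only 31 differed by under 5 points.

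All 5 candidate regions of the mitochondrial genome were intermediate, with wild-type means between 42.1% and 51.0% and mutant means between 35.2% and 45.1%. Their mean difference was -6.17 points. Without read counts, how far these levels measure methylation of mitochondrial DNA could not be checked and was not tested. The largest region (MT:12085-16281) had 51.0%, 53.9% and 48.2% against 48.8%, 45.7% and 40.8%, with overlap and an adjusted p of 0.0648 (limma). Among the mutant columns Mut1 was the highest in all 5, unlike the intermediate regions as a whole, where it was most often the lowest. Limma called 3 of the 5 lower, and each of those calls was lost in at least 5 of the 9 other fits.

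Mutant columns disagreed most in Dchs1, near Mid1 and in Padi2. In Dchs1, a protocadherin gene (chr7:105762636-105762705), the mutant columns had 89.0%, 64.0% and 18.2% and the wild-type columns 43.3%, 52.4% and 37.0%. On the X chromosome, 3.21 kb from Mid1 (chrX:169994004-169994180), the wild type had 58.8%, 17.2% and 68.8% and the mutant 11.8%, 71.5% and 18.6%. A region of the Y chromosome (chrY:90761423-90761508) repeated this order, with 56.7%, 20.2% and 67.3% against 11.1%, 63.8% and 10.9%. WT2 was low and Mut2 high at both. Mid1 spans the pseudoautosomal boundary, where X and Y carry shared sequence. In Padi2, an arginine deiminase gene, the mutant columns ran from 11.3% to 62.1%. None of these regions was called.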

How the data were processed

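DNA was sequenced in paired-end mode with 100 bp reads after conversion with either kit, per the labels' protocols, and the submitters' processing notes name mm10. No source used here gives the aligner, the methylation caller or how reads of the kits were combined. The authors deposited methylation levels of candidate regions as a fraction, without coverage, which were multiplied to percent. Their lists give the mean fraction per genotype, the number of CpGs, a q-value and adjusted p-value, and a mean difference that is a score between fractions, as deposited. Columns of other samples numbered 0.

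Levels in percent were tested over all 107115 candidate regions with limma 3.58.1 in R 4.3.3, two-sided, at a Benjamini-Hochberg adjusted p under 0.05, without a replicate block, and the procedure was tested on simulated data. Differences are mutant minus wild type. The columns carry replicate numbers in their names. Same-numbered columns deviated together with correlations of 0.0372, 0.00489 and 0.05, so the numbers were not taken to pair the samples. No 2 columns were alike (smallest median absolute difference 2.44 points).

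Gene spans and promoter sequences came from RefSeq tables of GRCm38.p6, the assembly mm10 names. A region within 1 kb of a protein-coding gene start was called promoter, other regions over a protein-coding span gene body, and the rest neither. List genes counted with 5 kb on each side. 260 of 261 entries of 10 lists matched. Exon positions were not used here. One region that the naming rule selects is not reported here. Named regions were the 10 largest listed losses with at least 10 CpGs and separated columns, all listed gains and the 8 largest called gains, the 10 largest promoter losses, the 5 with the most CpGs, up to 4 genes a list, the imprinted genes by counts and 8 with values, the 5 most variable in the mutant, those at the limits, Dnmt1, and the 5 smallest differences. Mitochondrial and sex-chromosome regions, Gtf2a1l, the imprinted genes with values beyond 8 and the neighbour of the Vasn region were chosen after their values were seen. The regions and lists were chosen with earlier results of these data known. Python 3.11.15, numpy 2.4.6, pandas 2.3.3 and matplotlib 3.10.9 were used.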

Additional observations from a re-analysis of the deposited data

How the results depend on the processing

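The number of intermediate regions called lower (5716) was 5768 with a replicate block, 5601 on a logit scale, 5731 with a robust and trended variance model and between 5575 and 5705 when any 1 column was left out. The number called higher (23) was more fragile: it was 31 with the replicate block, 12 on the logit scale, 26 with the robust model, between 14 and 22 with 1 column left out (14 without WT1, 15 without Mut2), and 11, 7 and 11 when WT1, WT2 or WT3 did not choose the regions. In the narrower range of 35% to under 55% there were 3521 lower calls among 3649 regions. Restricted to the authors' lists, there were 3581 lower and 2 higher calls, with a mean difference of -29.5 and a median of -27.9 points. When calls also needed a difference of 20 points, 3677 were called lower and 2 higher. The mean difference lay between -24.2 and -22.8 points with 1 column left out.

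At imprinted genes, alternatives chosen after seeing the data gave between 22 and 31 lower calls in place of 27. Higher calls there numbered 5, but 8 with the replicate block, 1 on the logit scale and between 2 and 8 with 1 column left out (2 without Mut1, 2 without Mut2 and 8 without Mut3). Without the imprinted regions, 5689 were called lower and 18 higher. The causes were not tested. Of 128 called regions tested one by one, 102 kept the call in all 9 other fits.

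With 3 columns per genotype and unknown depth, the precision of short regions with few CpGs is limited most, and how many reads lie behind any level is unknown.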
